A study of Homo sapiens with 7 samples.

Results

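Of the 66025 genes in the deposited table, 7 are described here: TPH1, FEV, DDC, SLC18A1 and LMX1A, which serve serotonin synthesis and storage, and GAD1 and GAD2, which make GABA. They were chosen by name for their roles. All 7 passed the filter on low counts, and none was at 0 in any library. The RNA-seq libraries came from β-like cells that express insulin, grown in vitro from H1, an established human embryonic stem cell line, taken at stage 6 of the protocol and sorted by flow cytometry with DA-ZP1, a fluorescent zinc probe. The libraries comprised iKD2 Dox+ (n = 3), iKD2 Dox- (n = 2) and iSCR Dox+ (n = 2).

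The iKD2 line carried a lentiviral shRNA against METTL14 that doxycycline (Dox) switches on. METTL14 belongs to the methyltransferase complex that places N6-methyladenosine on mRNA. The iSCR line carried a non-targeting shRNA from the same type of vector. Both lines were H1 cells transduced with lentivirus, selected with puromycin, and whether a line was 1 clone is not given in the sources used here. Cells of iKD2 Dox+ and iSCR Dox+ received Dox and those of iKD2 Dox- did not, so that iKD2 Dox- and iSCR Dox+ differed both in the shRNA and in Dox. Likewise, iKD2 Dox+ and iKD2 Dox- differed in exposure to Dox as well as in induction of the shRNA. The iKD2 Dox+ and iSCR Dox+ cells differed in the transduced line as well as in the shRNA. The study describes the libraries of each group as independent biological samples. The labels call every sample beta-like and give no culture or passage number, so what separated the samples of a group is not known here. The p-values therefore measure the spread between these libraries, part of which may be technical.

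Serotonin is made from tryptophan in 2 steps. A tryptophan hydroxylase adds a hydroxyl group with tetrahydrobiopterin as cofactor, and aromatic amino acid decarboxylase then removes the carboxyl group. Enterochromaffin cells of the gut are the body's main source of serotonin, β-cells can also make it, and cells that resemble enterochromaffin cells are a known by-product of β-cell differentiation from stem cells. GABA is made from glutamate by glutamate decarboxylase, which is abundant in β-cells as well as in inhibitory neurons.

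Levels are given as CPM, counts brought to a common library total, after scaling by TMM, a factor that corrects for library composition. Total estimated counts ranged from 14875429 to 20639156 per library, so that 3 counts, the upper limit that a count of 0 allows, stood for 0.145 to 0.202 CPM. The targeted gene, METTL14, stood at 18.7 CPM in library a of iKD2 Dox+, at 16.4 in library b and at 49.1 in library c. The iKD2 Dox- libraries had 39.4 (b) and 22.6 (c), and the iSCR Dox+ libraries had 36.1 (a) and 32.2 (b). Against its label, the third iKD2 Dox+ library, labelled c, held the highest METTL14 level of all 7, and differences of iKD2 Dox+ without it are given below. INS, the insulin gene, lay between 11370 and 22300 CPM in every library. Both libraries labelled a had the fewest genes with a count (20252 and 19652, against 21256 to 23747 in the others).

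The start sites of these genes are shown first, because the genes differ in their CpG content and in letters that homeodomain factors such as LMX1A can bind. The windows run from 250 bases before to 50 after a RefSeq transcription start on GRCh38.p14, are written 5′ to 3′ on the strand of the gene, and carry in capitals each CG and each TAATTA, the letters that many homeodomain factors bind. The TPH1 window lies at chr11:18046220-18046519 on the minus strand, the FEV window at chr2:218985135-218985434 (minus), the DDC windows at chr7:50565356-50565655 and chr7:50561022-50561321 (both minus) and the GAD2 window at chr10:26216122-26216421 (plus).
TPH1: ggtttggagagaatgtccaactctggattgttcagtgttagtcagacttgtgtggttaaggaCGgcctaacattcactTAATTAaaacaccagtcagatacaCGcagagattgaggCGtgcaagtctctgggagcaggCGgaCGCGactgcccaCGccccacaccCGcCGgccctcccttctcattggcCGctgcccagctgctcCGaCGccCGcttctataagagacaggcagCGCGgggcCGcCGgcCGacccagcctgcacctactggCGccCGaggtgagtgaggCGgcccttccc
FEV: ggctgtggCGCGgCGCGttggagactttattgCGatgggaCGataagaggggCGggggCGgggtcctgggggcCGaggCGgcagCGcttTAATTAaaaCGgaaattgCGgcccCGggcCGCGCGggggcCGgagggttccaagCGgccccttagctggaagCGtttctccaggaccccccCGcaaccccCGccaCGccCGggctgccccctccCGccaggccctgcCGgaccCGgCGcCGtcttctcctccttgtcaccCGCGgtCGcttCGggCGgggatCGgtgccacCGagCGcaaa
DDC start 1: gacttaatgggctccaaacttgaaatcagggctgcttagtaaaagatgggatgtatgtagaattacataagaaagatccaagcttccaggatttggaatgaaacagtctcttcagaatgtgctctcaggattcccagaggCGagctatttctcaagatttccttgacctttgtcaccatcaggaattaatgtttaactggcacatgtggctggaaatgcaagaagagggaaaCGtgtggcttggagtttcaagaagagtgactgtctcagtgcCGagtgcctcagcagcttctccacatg
DDC start 2: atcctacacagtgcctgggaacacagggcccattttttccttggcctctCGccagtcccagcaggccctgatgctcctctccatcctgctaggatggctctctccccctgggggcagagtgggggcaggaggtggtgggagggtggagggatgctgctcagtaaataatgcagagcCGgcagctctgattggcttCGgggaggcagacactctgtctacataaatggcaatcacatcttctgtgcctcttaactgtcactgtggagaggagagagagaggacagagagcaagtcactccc
GAD2: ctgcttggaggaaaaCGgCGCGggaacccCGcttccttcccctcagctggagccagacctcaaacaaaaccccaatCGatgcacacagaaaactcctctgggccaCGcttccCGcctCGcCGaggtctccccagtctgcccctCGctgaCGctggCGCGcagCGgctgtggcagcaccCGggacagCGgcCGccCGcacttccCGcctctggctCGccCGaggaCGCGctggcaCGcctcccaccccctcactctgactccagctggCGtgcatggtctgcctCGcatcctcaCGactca

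RefSeq start windows were taken for 6 of the 7 genes, 9 windows in all, and SLC18A1, on chromosome 8, was left out of this search. The TPH1 window held 21 CpG and the FEV window 37. Each DDC window held 3, and the GAD2 window shown held 27. Over 35116 promoter windows of the same length, the median was 14 CpG, with quartiles of 4 and 28. Both DDC starts were therefore below the lower quartile, while FEV was above the upper one, as were the first LMX1A window (32), that of GAD1 (29) and the second GAD2 window (34). TAATTA occurred once in the TPH1 window, 172 bases before the start, and once in the FEV window, 161 bases before it. It was in 4.84% of all windows, searched on both strands (the letters read the same on each). It was absent from the DDC, LMX1A, GAD1 and GAD2 windows. Of the other letters searched on both strands, the ETS core CCGGAA, in 17.2% of all windows, was found once in the GAD1 window and in no other. TATAAA, in 11.5%, was found 2 times in the GAD1 window, and CAGATG, an E-box in 14.7%, in none. These matches describe letters and are no evidence of binding.

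On the scale of CPM per kb of merged exons, which allows levels to be compared between genes, TPH1 was first, with a median of 116 over the 7 libraries (range 96.3 to 155). FEV followed with a median of 93.3 (41.6 to 114) and DDC with 80.9 (53.9 to 88.6). LMX1A had a median of 21.9 (17.3 to 32.4) and GAD2 of 14.6 (9.29 to 24.8). SLC18A1, at 5.51 (1.75 to 6.91), and GAD1, at 1.02 (0.114 to 2.33), were the lowest. The ranges of neighbours in this order overlapped except between DDC and LMX1A and between GAD2 and SLC18A1, so that the genes fell into an upper group of 3, a middle group of 2 and a lower group of 2. With the longest transcript as length, DDC came first, at a median of 124, before TPH1 and FEV, at 123 and 102, and the other 4 kept their order. GAD2 exceeded GAD1 per kb in every library, by 5.72-fold to 115-fold with a median of 14.4-fold, and with the longest transcript as length by 2.95-fold to 59.2-fold with a median of 7.43-fold.

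**Figure D1:**
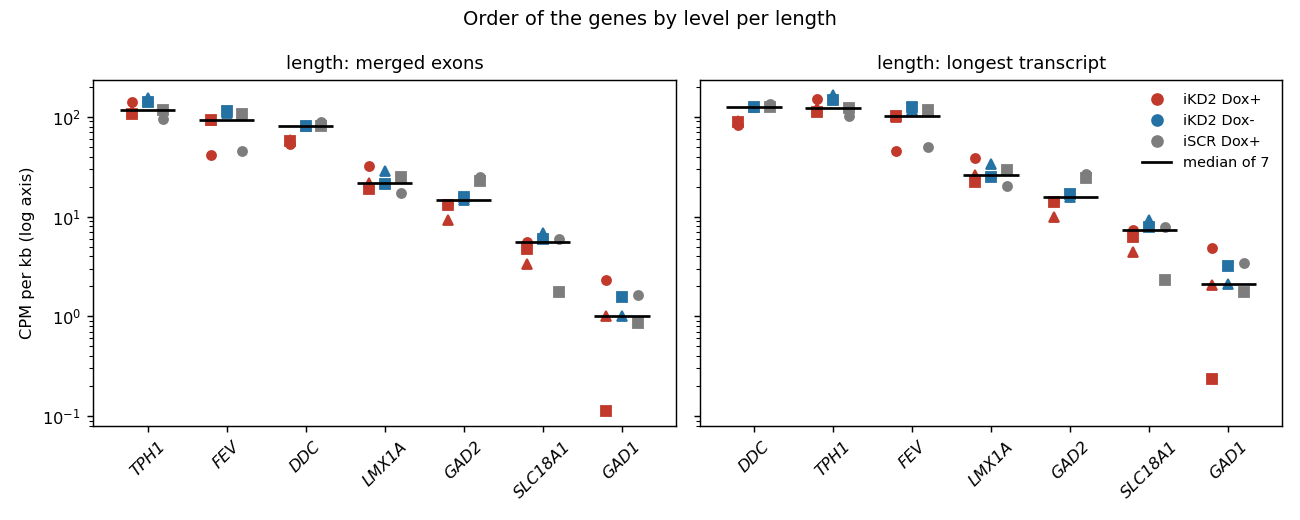
Level of each gene in CPM per kb on a log axis, with length taken as merged exons (left) or as the longest transcript (right). Each point is 1 library, coloured by group and shaped by library letter, and the bar is the median of 7. TPH1, FEV and DDC sit above LMX1A and GAD2, with SLC18A1 and GAD1 lowest, and DDC moves from the third to the first place between the panels.

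TPH1 (chr11:18017564-18042426, minus strand, in GENCODE 29 on GRCh38) encodes the tryptophan hydroxylase of tissues outside the brain, the rate-limiting enzyme of serotonin synthesis there. The iKD2 Dox+ libraries had 798 (a), 602 (b) and 647 CPM (c), those of iKD2 Dox- had 791 (b) and 872 (c), and those of iSCR Dox+ had 542 (a) and 654 (b). Throughout, values of a group follow this order of letters. The iKD2 Dox- libraries were thus both above iSCR Dox+, and iKD2 Dox+ spanned from within the one to within the other. The group means were 682 ± 103, 832 ± 57.3 and 598 ± 79.8 CPM (SD, n = 3, 2 and 2). In the edgeR quasi-likelihood fit of all genes, TPH1 in iKD2 Dox+ differed from iKD2 Dox- by -0.29 on the log2 scale (SE 0.18, 95% interval -0.67 to 0.09, adjusted p = 1). Against iSCR Dox+ the log2 difference was 0.19 (SE 0.18, adjusted p = 0.845). Between iKD2 Dox- and iSCR Dox+ it was 0.48 (SE 0.20, interval 0.06 to 0.90), and the adjusted p was 0.826. With the library labelled iKD2 Dox+ c left out, the first 2 were -0.25 and 0.22. The difference from iSCR Dox+ turned to -0.07 when both libraries labelled a were left out. The TPH1 counts were not whole, by more than 0.001, in 6 of the 7 libraries, so that its level is uncertain to the extent that reads were divided with other transcripts. The overlapping gene AC055860.1 was at 0 in every library. The RefSeq start shown above lies 3843 bases upstream of the TPH1 gene in GENCODE 29.

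DDC (chr7:50458436-50565457, minus strand) encodes aromatic amino acid decarboxylase, which makes serotonin from 5-hydroxytryptophan and also dopamine from DOPA. DDC stood at 169, 180 and 184 CPM in iKD2 Dox+, at 254 in both iKD2 Dox- libraries, and at 278 and 255 in iSCR Dox+. Every iKD2 Dox+ library lay below all 4 control libraries. The means were 178 ± 7.65 (n = 3), 254 ± 0.0211 (n = 2) and 266 ± 16.4 CPM (n = 2). The log2 difference of iKD2 Dox+ was -0.52 from iKD2 Dox- (SE 0.22, interval -0.98 to -0.05, unadjusted p = 0.0321 and adjusted p = 1 in edgeR). From iSCR Dox+ it was -0.58 (SE 0.22, interval -1.05 to -0.12, unadjusted p = 0.0165 and adjusted p = 0.678 in edgeR). Neither difference passed the adjusted threshold of 0.05. With the library labelled iKD2 Dox+ c left out, they were -0.54 and -0.61. DESeq2 gave an adjusted p of 0.0249 for the difference from iSCR Dox+ and called it, the only one of 17 alternative fits to do so. FIGNL1 overlaps DDC on the same strand, with a count of 2.89% to 13.0% of that of DDC, and DDC-AS1, on the opposite strand, reached at most 1.27%. The strand setting of the counting was not stated. The DDC counts were whole, within 0.001, in all 7 libraries.

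SLC18A1, on chromosome 8, encodes the vesicular monoamine transporter of endocrine cells, which loads serotonin into granules. Its level was 21.5, 18.7 and 13.1 CPM in iKD2 Dox+, 23.0 and 27.0 in iKD2 Dox-, and 23.2 and 6.82 in iSCR Dox+. The 2 iSCR Dox+ libraries spread almost as widely as all 7 together. The log2 difference of iKD2 Dox+ was -0.49 (SE 0.80) from iKD2 Dox- and 0.24 (SE 0.81) from iSCR Dox+, with edgeR adjusted p = 1 and 0.981. Its 95% interval against iKD2 Dox-, from -2.15 to 1.16, covers changes of more than 2-fold in either direction. Leaving out the library labelled iKD2 Dox+ c gave -0.32 and 0.42.

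FEV (chr2:218981087-218985657, minus strand) encodes an ETS factor required for serotonergic neurons and expressed in developing islet endocrine cells. FEV stood at 85.1, 191 and 188 CPM in iKD2 Dox+, at 233 and 222 in iKD2 Dox-, and at 93.0 and 218 in iSCR Dox+. Its 2 lowest levels were thus in the libraries labelled a of different groups, the same libraries that had the fewest genes with a count. The other 5 lay between 188 and 233 CPM. FEV in iKD2 Dox+ differed from iKD2 Dox- by -0.56 on the log2 scale (SE 0.37, adjusted p = 1 in edgeR) and from iSCR Dox+ by -0.01 (SE 0.37, adjusted p = 1 in edgeR). Between iKD2 Dox- and iSCR Dox+ the log2 difference was 0.55 (SE 0.41). Leaving out the library labelled iKD2 Dox+ c gave -0.73 and -0.18 for the first 2. Without both libraries labelled a, an alternative chosen after the data had been seen, the same differences were -0.26, -0.21 and 0.06. Without iSCR Dox+ b alone, FEV in iKD2 Dox- was 1.29 above iSCR Dox+ on the log2 scale, with an edgeR adjusted p of 0.0339. That call rests on a single iSCR Dox+ library, a, which is assumed to vary like the other groups. The study lists FEV among γ-cell identity genes affected by METTL14 depletion, using unpaired t tests of selected genes in these groups.

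LMX1A (chr1:165201867-165356715, minus strand) encodes a LIM homeodomain factor known from midbrain dopamine neurons and from enterochromaffin cells, where it acts upstream of TPH1. LMX1A stood at 136, 78.3 and 91.8 CPM in iKD2 Dox+, at 88.8 and 119 in iKD2 Dox-, and at 72.2 and 105 in iSCR Dox+. The 3 groups overlapped. The log2 difference of iKD2 Dox+ was -0.03 (SE 0.34) from iKD2 Dox- and 0.21 (SE 0.34) from iSCR Dox+, with edgeR adjusted p = 1 and 0.941. Leaving out the library labelled iKD2 Dox+ c gave 0.04 and 0.27, and without both libraries labelled a the second was -0.30.

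GAD2 (chr10:26216307-26304558, plus strand) encodes the glutamate decarboxylase best known as an autoantigen of type 1 diabetes. GAD2 stood at 83.3, 81.4 and 58.1 CPM in iKD2 Dox+, at 98.0 and 91.5 in iKD2 Dox-, and at 155 and 144 in iSCR Dox+. The 3 groups did not overlap, with iKD2 Dox+ lowest, iKD2 Dox- between and iSCR Dox+ highest. The means were 74.3 ± 14.1 (n = 3), 94.7 ± 4.58 (n = 2) and 149 ± 7.90 CPM (n = 2). Against iSCR Dox+, GAD2 in iKD2 Dox+ was at 0.497 of the level, a log2 difference of -1.01 (SE 0.31, interval -1.65 to -0.37, unadjusted p = 0.00349 and adjusted p = 0.486 in edgeR). Against iKD2 Dox- the log2 difference was -0.35 (SE 0.31, interval -0.99 to 0.29, adjusted p = 1 in edgeR). The control groups themselves differed by -0.66 (SE 0.34, interval -1.37 to 0.05, adjusted p = 0.826 in edgeR), iKD2 Dox- being lower. With the library labelled iKD2 Dox+ c left out, the first 2 differences were -0.86 and -0.21. DESeq2 called the difference from iSCR Dox+ (-1.04, adjusted p = 0.00862), and none of the other 16 alternative fits did.

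GAD1 (chr2:170813213-170861151, plus strand) encodes the other glutamate decarboxylase. GAD1 stood at 19.2, 0.936 and 8.24 CPM in iKD2 Dox+, at 12.8 and 8.39 in iKD2 Dox-, and at 13.6 and 7.02 in iSCR Dox+. The lowest value stood for 15 counts and the highest for 321, and both were in iKD2 Dox+, so that this group contained the whole range. The log2 differences of iKD2 Dox+ were -0.16 (SE 1.32) from iKD2 Dox- and -0.12 (SE 1.32) from iSCR Dox+. Their 95% intervals, -2.90 to 2.58 and -2.87 to 2.62, cover changes of 4-fold in either direction. Leaving out the library labelled iKD2 Dox+ c gave -0.07 and -0.04.

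**Figure D2:**
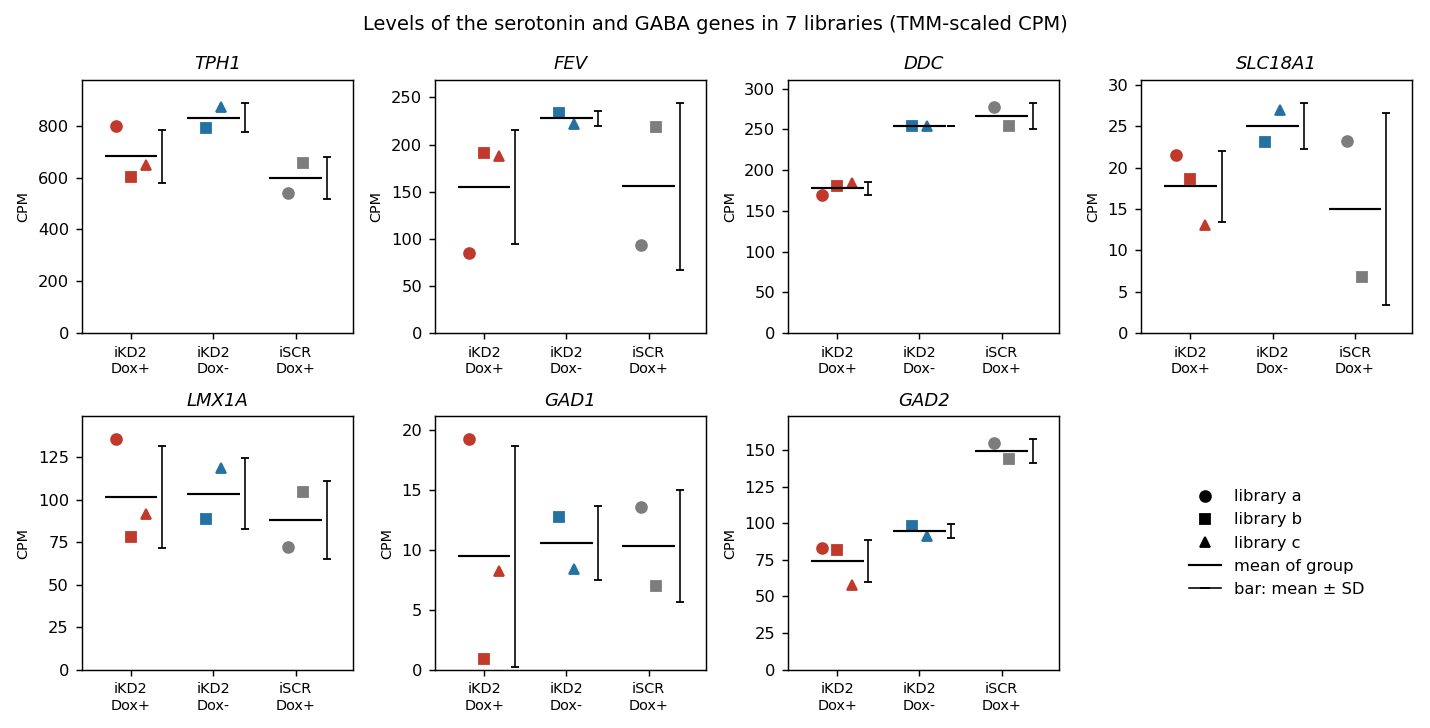
TMM-scaled CPM of each gene in the 7 libraries, each axis starting at 0. Points are libraries (shape, letter a, b or c), horizontal lines are group means and bars span the mean ± SD (n = 3, 2 and 2). DDC and GAD2 lie lower in all 3 iKD2 Dox+ libraries than in all 4 controls, FEV is lowest in both libraries labelled a, and GAD1 spreads most within iKD2 Dox+.

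Counted over the 7 genes, edgeR called 0 in each of the 3 comparisons at an adjusted p under 0.05, where 0.0393%, 0.0262% and 0.0131% of the 22926 genes tested were called. The comparisons are those of iKD2 Dox+ with iKD2 Dox-, of iKD2 Dox+ with iSCR Dox+, and of the control groups with each other (iKD2 Dox- minus iSCR Dox+), in that order throughout. At an unadjusted p under 0.05 there was 1 of 7 in the first comparison (DDC), 2 in the second (DDC and GAD2) and 1 in the third (TPH1), with 3.72%, 6.72% and 4.45% of all genes. DESeq2 called 0, 2 and 0 at an adjusted p under 0.05, and 1.01%, 3.29% and 1.87% of all genes. Under the study's own criterion (more than 1.5-fold, with an unadjusted p below 0.05), the counts were 0, 1 and 0, where 3.55%, 6.52% and 4.38% of all genes passed. The one was GAD2, which was lower with the METTL14 shRNA induced than with the non-targeting shRNA. DDC missed the 1.5-fold limit only narrowly, at 0.6669 of the iSCR Dox+ level, so that this count depends on a very small margin. With the library labelled iKD2 Dox+ c left out, the counts by this criterion were 0, 2 and 0, and those at an adjusted p stayed at 0. The 3 comparisons share libraries and are not independent.

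All 3 iKD2 Dox+ libraries lay below both iKD2 Dox- libraries for 4 genes (FEV, DDC, SLC18A1 and GAD2) and above them for 0, where 11.6% of all genes were below and 8.72% above. Against iSCR Dox+ the counts were 2 below (DDC and GAD2) and 0 above, with 9.23% and 11.3% of all genes. Of iKD2 Dox- against iSCR Dox+, 2 were above (TPH1 and FEV) and 2 below (DDC and GAD2), with 19.9% and 13.2%. DDC and GAD2 were below all 4 controls, as were 2.83% of all genes, and none of the 7 was above all 4, as were 3.47%. The median log2 difference of the 7 genes was -0.35, -0.01 and 0.23 in the 3 comparisons, against 0.02, 0.08 and 0.04 over all genes.

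**Figure D3:**
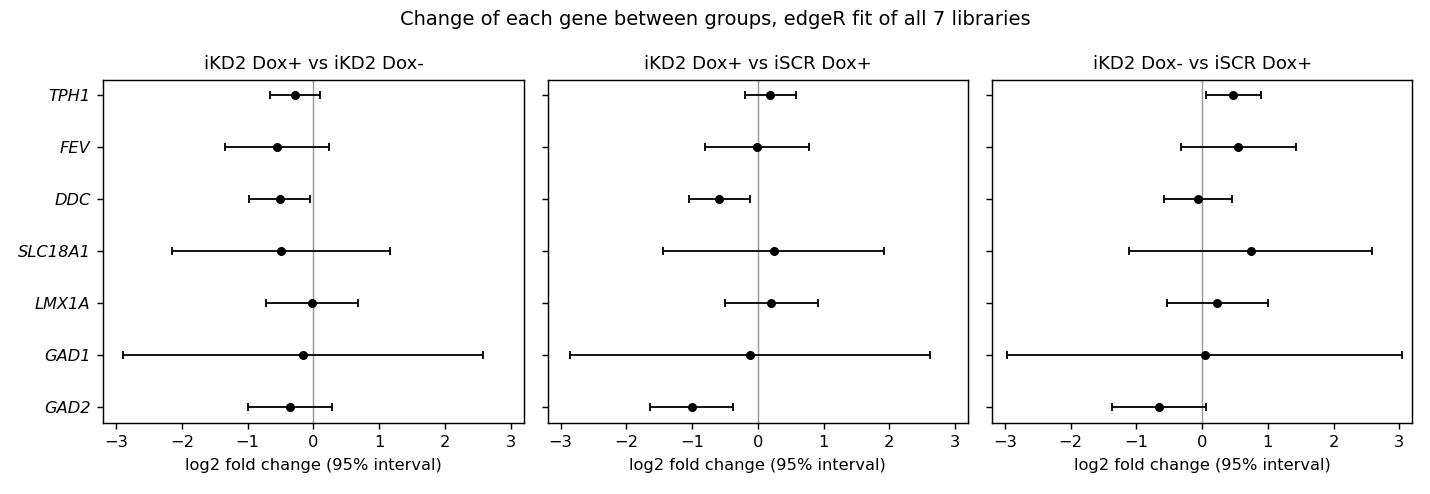
Log2 fold change of each gene in the 3 comparisons, from the edgeR fit of all 7 libraries. Points are estimates and bars their 95% intervals, and the grey line marks no change. The intervals of DDC lie below 0 in both comparisons of iKD2 Dox+, that of GAD2 only against iSCR Dox+, and those of GAD1 are the widest.

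Summed markers of some cell types differed between the same groups, and those of others overlapped. Summed over 10 β-cell markers, all detected, the level was 12390 to 14440 CPM in iKD2 Dox+, 15650 to 18790 in iKD2 Dox- and 22480 to 23150 in iSCR Dox+. INS made up 91.3% to 96.3% of each sum. The other 9 markers together gave 767 to 1082, 1017 to 1399 and 856 to 977 CPM, so that this sum in iKD2 Dox+ overlapped both controls. Of these 9, PDX1 was lower in every iKD2 Dox+ library (71.1, 90.3 and 123 CPM) than in all controls (133 to 190). Each of the others overlapped the controls. All 5 duct markers were detected, with a sum of 834 to 960 CPM in iKD2 Dox+, 430 to 563 in iKD2 Dox- and 484 to 574 in iSCR Dox+. All 6 mesenchyme markers were detected as well, at 682 to 1080, 285 to 415 and 628 to 685 CPM. Proliferation markers (5 of 5 detected) summed to 425 to 531 CPM in iKD2 Dox+ and 178 to 398 in the controls. Of these, TOP2A and CCNB1 were higher in every iKD2 Dox+ library than in the controls, while MKI67, CDK1 and BUB1 overlapped. A single gene made up most of the duct (KRT19), mesenchyme (COL3A1) and proliferation (MKI67) sums in every library. Hepatic markers (4 of 4) gave 22.8 to 39.4 against 49.0 to 77.9 CPM, and PPY with GHRL, of γ- and ε-cells, 40.1 to 62.1 against 65.9 to 100.5 CPM. Each hepatic marker taken alone overlapped the controls, as did GHRL, while PPY was lower in every iKD2 Dox+ library. Of 5 acinar markers CELA3A, CTRB2 and PNLIP were at 0 in every library. The α-cell markers summed to 6463 to 11410 CPM in iKD2 Dox+, 10910 to 15170 in iKD2 Dox- and 11690 to 13120 in iSCR Dox+. There iKD2 Dox+ overlapped iKD2 Dox- and lay below iSCR Dox+. In the same order the δ-cell markers gave 2105 to 3956, 2309 to 2685 and 1996 to 3781 CPM. Pluripotency markers gave 3.60 to 62.3, 7.65 to 15.5 and 22.5 to 27.8 CPM. For the δ-cell and pluripotency sums iKD2 Dox+ overlapped both controls. The part of these differences in the levels of DDC and GAD2 was not tested. In bulk RNA, fewer cells of a type and less RNA per cell cannot be told apart.

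The genes were then compared with one another across the 7 libraries, over 21 pairs. None passed an adjusted p of 0.05 in the exact permutation test (two-sided, 5040 pairings, smallest possible p = 0.000397), and 2 pairs had an unadjusted p under 0.05. TPH1 and LMX1A had r = 0.79 and rho = 0.86 (exact permutation p = 0.0385 and 0.0238, adjusted p = 0.404 and 0.358). Without the 2 libraries farthest from the median TPH1 level r was 0.59, and on deviations from the group means it was 0.99. Library a of iKD2 Dox+ and library c of iKD2 Dox- were highest in both genes. No p was computed on deviations, and in a group of 2 libraries the deviations mirror each other, so few values are free. On deviations r was also large for pairs with little relation otherwise, such as TPH1 and DDC (-0.88, where r was -0.05). Whether the pair varied together within the groups was therefore not established. DDC and GAD2 had r = 0.77 and rho = 0.82 (exact permutation p = 0.0337 and 0.0341, adjusted p = 0.404 and 0.358). Without the 2 libraries farthest from the median DDC level, a and b of iKD2 Dox+, r was 0.88, with library c alone left of that group. On deviations from the group means r was -0.36, with the same limit, so that a relation of DDC and GAD2 within the groups was not established either. Of the 21 pairs, 11 had an r above 0.

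**Figure D4:**
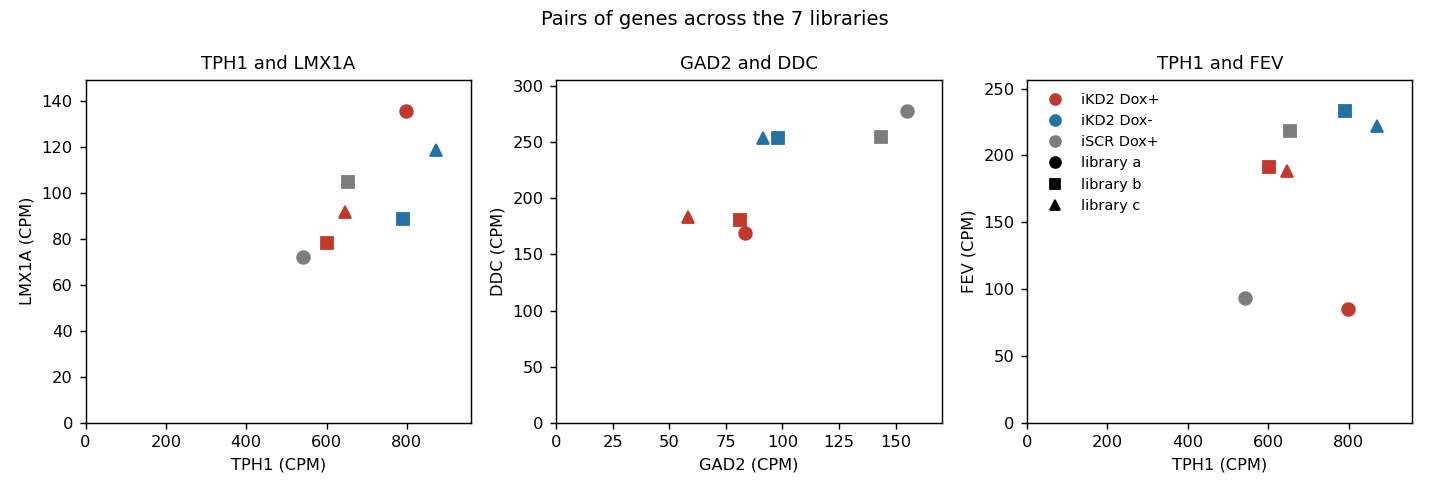
Levels of 3 pairs of genes in the 7 libraries, in TMM-scaled CPM on axes that start at 0. Each point is 1 library, coloured by group and shaped by letter. TPH1 and LMX1A tend to rise together across the libraries (r = 0.79, adjusted p = 0.404 by the exact permutation test). DDC and GAD2 separate iKD2 Dox+ at the lower left from the controls (r = 0.77, adjusted p = 0.404 by the same exact test). FEV is low in both libraries labelled a at very different TPH1 levels (r = 0.26).

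Among 13688 genes with a mean of at least 5 CPM, those most like each member over the 7 libraries were found by Pearson r of log2(CPM + 1), as a description. For TPH1 they were TCEAL5 (0.956), AGO2 (0.946) and CNBP (0.946). DDC was most like PGM1 (0.986), RGS7 (0.979) and WRAP53 (0.971), and GAD2 most like CFAP20 (0.989), DPYSL2 (0.974) and H2AC11 (0.968). For FEV they were FICD (0.996), KCNC1 (0.978) and CDH22 (0.974). FICD was at 0 in both libraries labelled a, at 6.18 and 4.92 CPM in the other iKD2 Dox+ libraries, and at 8.67 and 8.28 in those of iKD2 Dox-. SLC18A1 was most like SPATA5 (0.989), GMFB (0.985) and CDK2 (0.985), LMX1A most like SLFNL1-AS1 (0.972), MYH4 (0.967) and PEX19 (0.965), and GAD1 most like ZNF329 (0.982), IQSEC2 (0.980) and ENSG00000285565 (0.973). No member was among the genes searched, and with so many genes and 7 libraries high values of r are common.

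The other genes of the pathways were taken from 8 lists with 88 genes, of which 65 passed the filter and 7 were at 0 in every library (TAC1, ASMT, HTR3A, HTR4, GABRA3, GABRA6 and GABRB1). In edgeR 0 of the 65 passed an adjusted p of 0.05 in any of the 3 comparisons, and DESeq2, with the shares of all genes given above, called 2, 2 and 3. By the criterion of the study 2 were higher and 3 lower in iKD2 Dox+ than in iKD2 Dox-, and 3 higher and 5 lower than in iSCR Dox+. Between the control groups 4 were higher and 1 lower in iKD2 Dox-. Of all genes tested, 3.55%, 6.52% and 4.38% passed this criterion in the 3 comparisons. Every iKD2 Dox+ library lay below all 4 controls for 4 of the 65 genes, as for 2.83% of all genes. These were PTS, QDPR, INSM1 and PDXK, named after their values had been seen. Above all 4 controls were 2 of the 65 (GATA3 and GABRP), as were 3.47% of all genes. The median log2 differences of the 65 genes were -0.41, -0.25 and -0.02.

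All 6 genes of the tetrahydrobiopterin list passed the filter. GCH1, the first enzyme of cofactor synthesis, was at 61.7, 89.5 and 81.5 CPM in iKD2 Dox+, at 117 and 104 in iKD2 Dox- and at 87.3 and 57.4 in iSCR Dox+, so that both iKD2 Dox- libraries were above the rest. The list had 4 genes with every iKD2 Dox+ library below iKD2 Dox- and 1 above, against the 11.6% and 8.72% of all genes given above, and a median log2 difference of -0.56. PTS and QDPR, enzymes of cofactor synthesis and recycling, were the 2 of this list below all 4 controls in every iKD2 Dox+ library. QDPR was at 62.4, 65.0 and 60.0 CPM in iKD2 Dox+, against 75.6 to 107 in the controls.

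TPH2, the hydroxylase of neurons, was far below TPH1, at 12.1, 4.06 and 0 CPM in iKD2 Dox+, 4.53 and 4.52 in iKD2 Dox-, and 11.7 and 0.334 in iSCR Dox+. SLC18A2, the second vesicular monoamine transporter, was at 29.3, 29.9 and 31.4 CPM, at 34.5 and 8.39, and at 55.3 and 53.4 in the same order, highest in both iSCR Dox+ libraries. SLC6A4, the serotonin reuptake transporter, ranged from 5.76 to 57.1 CPM, and both extremes were in iSCR Dox+. MAOA, which degrades serotonin, was at 10.8 to 21.7 CPM in iKD2 Dox+, at 23.8 and 20.1 in iKD2 Dox- and at 77.4 and 15.9 in iSCR Dox+, where 1 library stood apart. AANAT, which leads from serotonin to melatonin, was at 3.59 CPM in iSCR Dox+ a and at 0 in the other 6. TH, the first enzyme of dopamine synthesis, lay between 9.55 and 27.8 CPM with overlapping groups. Of the 15 serotonin receptors listed, 5 passed the filter, and none passed the criterion of the study in any comparison.

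Of the factors upstream of serotonin genes, NKX2-2 was at 77.8, 100 and 101 CPM in iKD2 Dox+, at 113 and 140 in iKD2 Dox- and at 108 and 59.9 in iSCR Dox+. GATA3, a zinc finger factor of serotonergic and many other cells, was at 81.7, 63.9 and 72.0 CPM in iKD2 Dox+, at 27.7 and 7.14 in iKD2 Dox- and at 48.5 and 55.6 in iSCR Dox+. Each iKD2 Dox+ library was above all 4 controls. The log2 difference of GATA3 from iKD2 Dox- was 2.06 (SE 0.54, edgeR adjusted p = 0.446), with an adjusted p under 0.05 in 5 of 17 alternative fits, and from iSCR Dox+ it was 0.48 (edgeR adjusted p = 0.874). These were 2.06 and 0.48 with the library labelled iKD2 Dox+ c left out, and the first was 3.34 when iKD2 Dox- b was left out and 1.39 when iKD2 Dox- c was. GATA3 also differed between the control groups by -1.58, lower in iKD2 Dox-, which passed the criterion of the study (unadjusted p = 0.0107 and adjusted p = 0.826 in edgeR). Its relative GATA2 was at 7.24, 12.0 and 11.9 CPM in iKD2 Dox+, at 0.731 and 9.37 in iKD2 Dox-, and at 0.0677 and 0 in iSCR Dox+. Of 7 further enterochromaffin markers 6 were detected, with a summed level of 354 to 502 CPM in iKD2 Dox+, 601 to 629 in iKD2 Dox- and 309 to 407 in iSCR Dox+. TAC1, which encodes the substance P precursor of many enterochromaffin cells, was at 0 in every library. COL5A2 and ADRA2A, shown here after their values had been seen, made up most of the sum. COL5A2 was at 242 to 341, 384 and 421, and 157 and 266 CPM, and ADRA2A at 64.4 to 125, 152 and 174, and 120 and 115 CPM. CDX2, also named after its values had been seen, was at 27.6, 52.3 and 26.4 CPM in iKD2 Dox+. It was at 28.1 and 12.5 in iKD2 Dox- and at 13.7 and 7.96 in iSCR Dox+. It passed the criterion of the study against iSCR Dox+, at 3.27-fold higher (unadjusted p = 0.0322 and adjusted p = 0.699 in edgeR), and overlapped iKD2 Dox-.

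On the GABA side, ABAT, which degrades GABA, was at 17.2, 26.5 and 25.6 CPM in iKD2 Dox+, at 53.6 and 26.1 in iKD2 Dox- and at 15.4 and 45.8 in iSCR Dox+, with overlapping groups. SLC32A1, the vesicular GABA transporter of neurons, was at 3.51 CPM in iKD2 Dox- b and at 0 in the other 6 libraries. Of 21 GABA receptor genes 14 passed the filter. GABRP, the π subunit, was at 116, 96.0 and 108 CPM in iKD2 Dox+, at 24.4 and 9.04 in iKD2 Dox- and at 42.5 and 25.4 in iSCR Dox+. Every iKD2 Dox+ library was thus above all 4 controls, by more than the spread within any group. The log2 difference of GABRP was 2.67 from iKD2 Dox- (SE 0.50, interval 1.64 to 3.71, adjusted p = 0.0537 in edgeR), with an adjusted p under 0.05 in 10 of 17 alternative fits. From iSCR Dox+ it was 1.65 (SE 0.47, adjusted p = 0.448 in edgeR), past the threshold in 2 of 17. With the library labelled iKD2 Dox+ c left out, the differences were 2.66 and 1.64. The difference from iKD2 Dox- was 3.55 when iKD2 Dox- b was left out and 2.12 when iKD2 Dox- c was, and that from iSCR Dox+ ranged from 1.33 to 2.07 over the alternatives. GABRQ was at 4.85 CPM in iKD2 Dox- c, at 7.92 in iSCR Dox+ a and at 0 in the other 5. GABRP is known from several epithelia, and the part of the duct marker difference given above in its level was not tested.

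**Figure D5:**
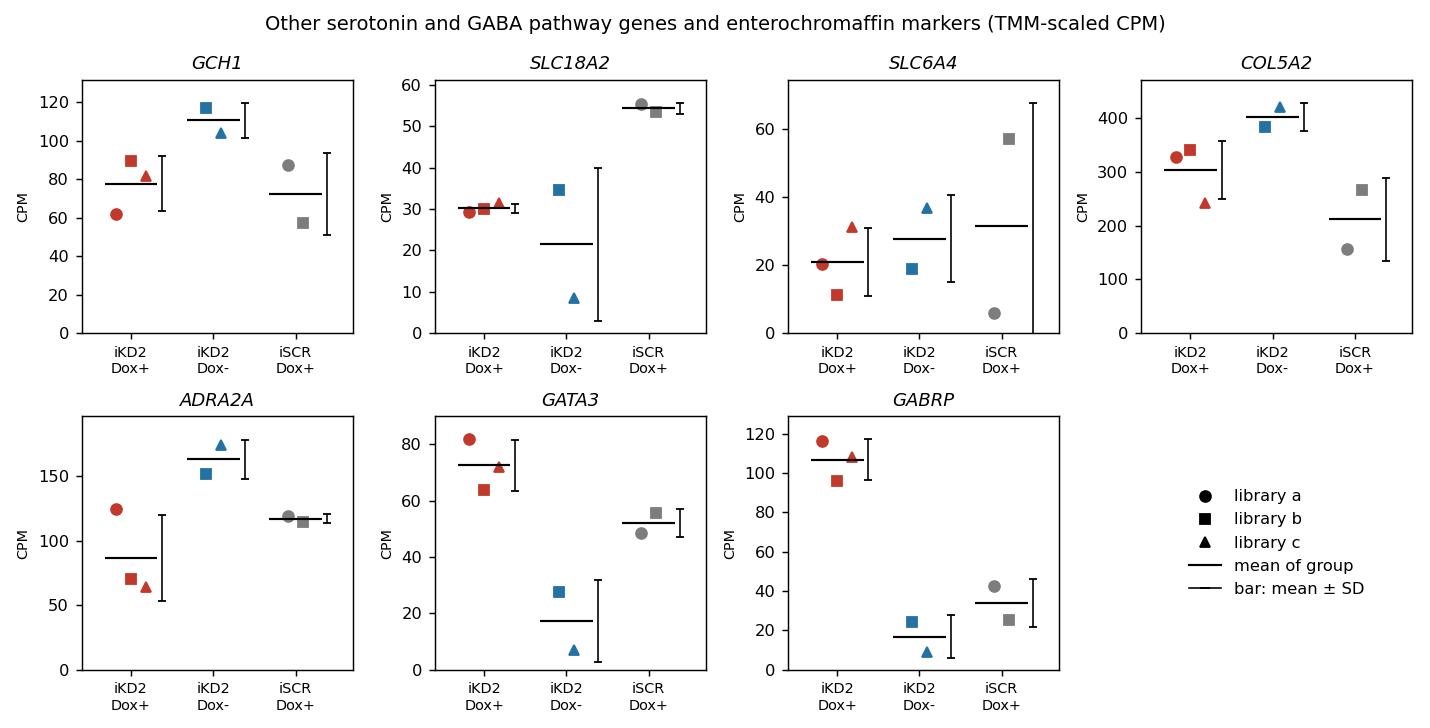
TMM-scaled CPM of 7 other genes of serotonin and GABA biology in the 7 libraries, each axis starting at 0. Points are libraries, lines group means and bars the mean ± SD (n = 3, 2 and 2), and the SLC6A4 bar of iSCR Dox+ reaches below 0 and is cut there. GABRP and GATA3 are higher in all 3 iKD2 Dox+ libraries than in all 4 controls, and COL5A2, ADRA2A and GCH1 are highest in iKD2 Dox-.

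The longest protein-coding transcript of each gene in GENCODE 29 was searched for GGACT, letters in which N6-methyladenosine is often placed. TPH1 held 6, or 1.13 per kb, and DDC 2, or 0.980 per kb. GAD2 held 4 (0.683 per kb), SLC18A1 0.677 per kb, LMX1A 0.564 and GAD1 0.541, while FEV held 0. Over 15326 protein-coding genes tested, the median was 0.934 per kb, with quartiles of 0.574 and 1.39. TPH1 and DDC were thus above the median and the other 5 below it, and these letters say nothing of whether a site was methylated.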

How the data were processed

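The 7 genes and all gene lists were chosen with earlier results of these data known. The authors deposited estimated counts per gene, made with Kallisto and tximport, not scaled for depth or length. The submitters' processing notes name fastp and Kallisto, and versions, genome build, annotation and strand setting are not given in the sources used here. Kallisto divides reads that fit several genes between them. Groups came from the labels and no sample was left out.

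Counts were rounded, filtered with filterByExpr (22926 genes kept), scaled by TMM and fitted in edgeR 4.0.16 under R 4.3.3 with the robust quasi-likelihood test. All 3 groups were in one fit, with Benjamini-Hochberg adjustment over all genes tested. The study names TMM and voom, and gene-by-gene tests for selected genes, in place of which a fit across all genes was used here. Levels are TMM-scaled CPM and errors are SD. Intervals cover 95%, and a count of 0 allows up to 3 counts, which covers counting error only, since PCR copies are not independent molecules. Gene positions and lengths are from GENCODE 29 on GRCh38, found by gene ID, and start windows are from RefSeq on GRCh38.p14. Likeness between genes used log2(CPM + 1).

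Genes named are the 7 members, fixed genes of their pathways (TPH2, GCH1, SLC18A2, SLC6A4, MAOA, AANAT, TH, ABAT, SLC32A1 and NKX2-2, with 1 more that is not reported here), list genes past the study's criterion in 2 of 3 comparisons, and the 3 genes most alike to each member. Alternatives were other scaling, filters and tools (DESeq2 1.42.0, limma 3.58.1 with voom), a replicate block, each library left out, and fits of the compared groups alone. Leaving out both libraries labelled a was added after the data had been seen. The edgeR script was tested on simulated data.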

Additional observations from a re-analysis of the deposited data

How the results depend on the processing

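Of 357 alternative log2 differences of the 7 genes, 331 kept their direction and their side of the threshold, 3 newly passed it and 23 turned. CPM from total counts moved no level by more than its spread. The cause of the turned values was not tested. FEV in iKD2 Dox+ against iSCR Dox+ was 0.0008 with upper-quartile factors, 0.00045 with no filter and 0.024 with voom. GAD1 in iKD2 Dox- against iSCR Dox+ was -0.0059 with DESeq2 size factors and with DESeq2. Without both libraries labelled a, LMX1A was -0.012 in iKD2 Dox- and -0.30 in iKD2 Dox+ against iSCR Dox+, and TPH1 was -0.07 in the latter. With each library left out in turn, iKD2 Dox+ against iSCR Dox+ gave -0.49 to 0.74 for FEV, -0.056 to 0.50 for LMX1A, -0.39 to 1.38 for SLC18A1 and -1.17 to 0.43 for GAD1. Against iKD2 Dox- it gave -0.29 to 0.19 for LMX1A and -1.21 to 0.37 for GAD1. For iKD2 Dox- against iSCR Dox+ the ranges were -0.0081 to 0.53 for LMX1A and -0.36 to 0.59 for GAD1.

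The number of the 7 genes past an adjusted p of 0.05 was 2 with DESeq2 for iKD2 Dox+ against iSCR Dox+, and 0 to 1 for iKD2 Dox- against iSCR Dox+ with a library left out (1 without iSCR Dox+ b). By the criterion of the study, iKD2 Dox+ against iSCR Dox+ had 2 with DESeq2 size factors, a total of at least 10 counts, a mean of at least 5 CPM, DESeq2, only the groups compared, and the replicate block. With a library left out it had 1 to 3 (3 without iSCR Dox+ b, and 2 without iKD2 Dox+ b, iKD2 Dox+ c or iKD2 Dox- b). For iKD2 Dox- against iSCR Dox+ it was 1 with DESeq2 and with voom, and 0 to 2 with a library left out (2 without iSCR Dox+ b).

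Of the pathway genes, 1 passed an adjusted p of 0.05 for iKD2 Dox+ against iKD2 Dox- with DESeq2 size factors, no filter, a total of at least 10 counts, only the groups compared, and the replicate block. That gene was GABRP in all 5. DESeq2 gave 2, 2 and 3 in the 3 comparisons. Leaving out a library gave 0 to 2 in each, with 2 without iKD2 Dox- b in the first, without iSCR Dox+ a in all 3, and without iSCR Dox+ b in the first and the third. Leaving out both libraries labelled a gave 3, 2 and 2. Many of the genes called there, such as GABBR1 and CXCL14, rest on a lone iSCR Dox+ library, which is assumed to vary like the other groups.

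Libraries share letters across groups, but the labels state no shared batch. Deviations from the group means had correlations of -0.03 to 0.02 over 5 same-letter pairs and of -0.03 to 0.03 over 11 other pairs. In a group of 2 libraries the deviations mirror each other, so these sets of pairs are not independent. They cannot decide whether the letters mark pairs. The letters were not taken as pairs in the main fit. With the replicate block, edgeR called 18, 15 and 8 genes of all tested in the 3 comparisons, against 9, 6 and 3 without it, and the block changed no call of the 7 genes at an adjusted p of 0.05. Of 42 alternative correlations between members, 16 moved, each of them on deviations from the group means, and without the 2 libraries farthest from the median of the first gene r changed sign in 8 of the 21 pairs. Groups of 2 and 3 libraries limit what can be detected for genes as variable as GAD1 and SLC18A1.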
